A study of Danio rerio with 1152 samples.

Results

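The Wnt ligands WNT8A, WNT8-2, WNT11 and WNT5B were measured cell by cell in zebrafish (Danio rerio) at 50% epiboly, when the blastoderm has spread over the upper part of the yolk and gastrulation begins. They are 4 of the 13902 genes in the deposited table of counts and were taken from it by their symbols, over the 1000 of 1152 wells in which at least 2000 genes were detected. All embryos came from TL/AB in-crosses, with no mutation, transgene or treatment named in the labels. The blastoderm caps were cut from the yolk and dissociated, and cells were picked by hand into wells of 3 experimental batches of equal size. The labels name no group other than batch and, for batch 1, the plates 5 to 8. Neither the number of embryos behind a batch nor whether batches were separate clutches is stated in them.

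Wnt proteins are secreted, lipid-modified signals that bind Frizzled receptors. In the canonical branch the signal stabilises beta-catenin, which enters the nucleus and acts with Tcf and Lef factors on target genes. Zebrafish wnt8a works in this branch, is expressed at the blastoderm margin and is known for its part in ventrolateral and posterior patterning. The zebrafish wnt8a locus is known to give transcripts that carry both coding sequences, named wnt8a ORF1 and ORF2, or wnt8a and wnt8-2. The non-canonical branch acts on cell shape and movement through planar cell polarity components. Zebrafish wnt11 (silberblick) and wnt5b (pipetail) are known from mutants in which convergence and extension movements of the gastrula fail. In RefSeq (assembly GRCz12tu) the symbol wnt11 is an older name of wnt11f2, the silberblick gene, while the gene now called wnt11 carries wnt11r as an older name. The table has a separate WNT11R row, and WNT11 is used below as the table spells it.

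Counts are UMIs, random tags that mark single cDNA molecules, and levels are UMIs per 10000 UMIs of the class or batch. The library amplified the 5′ end of transcripts, so that a count does not grow with transcript length. Kept cells had median totals of 57293, 55922 and 35746 UMIs in batches 1, 2 and 3, which gave 34.7%, 29.6% and 35.7% of them, and totals ranged from 5307 to 132749. The counts of 1 pair of wells, taken from batches 1 and 2, agreed more closely than sampling noise allows (chi-square of 0.500 per degree of freedom, against 1.09 for the next closest pair), and leaving both out changed no call of a ligand. Intervals given for shares of cells are Wilson 95% intervals and cover counting error only.

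WNT11 was the most widely detected of the 4 ligands and WNT5B the rarest. A WNT11 UMI was found in 65.1% (59.98 to 69.95), 46.3% (40.7 to 51.98) and 63.6% (58.5 to 68.4) of kept cells of batches 1, 2 and 3. WNT8A was found in 23.6% (19.5 to 28.4), 15.9% (12.2 to 20.5) and 32.2% (27.6 to 37.2) of cells of batches 1, 2 and 3. WNT8-2 lay close to it, at 24.8%, 15.9% and 31.9% of cells. WNT5B was found in 6.92% (4.69 to 10.1), 4.39% (2.58 to 7.37) and 12.3% (9.31 to 16.1). The order of WNT11, the WNT8 rows and WNT5B was the same in each batch, and the intervals of these 3 did not overlap within a batch. Batch 2 had the lowest share for every one of the 4 ligands, and TA, the marginal T-box gene no tail, was also detected least there, in 43.9% of cells against 54.2% in batch 1 and 65.3% in batch 3. In all, 625 of the 1000 cells, or 62.5%, held a UMI of at least 1 of the 4.

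Shares of cells with a UMI move with depth. With every cell thinned to 20000 UMIs, which left out 71 shallower cells, WNT8A was found in 20.02%, WNT8-2 in 19.8%, WNT11 in 54.4% and WNT5B in 5.81% of the cells. Without thinning the shares over all kept cells were 24.4%, 24.7%, 59% and 8.10%. At 20000 UMIs batch 2 no longer had the lowest share of WNT5B, at 4.43% against 3.59% in batch 1 and 9.26% in batch 3. For the other ligands its share was still the lowest. At 10000 UMIs the WNT8A shares of batches 1 and 2 were close, at 12.7% and 12.6%. Within batch 1 the plates differed too. WNT11 was found in 76.8% of cells of plate 5 and 70.1% of plate 6, and in 56.98% and 57.6% of cells of plates 7 and 8. WNT8A had the other order, with 15.9% and 18.4% on plates 5 and 6 and 30.2% and 29.3% on plates 7 and 8. Enveloping layer-like cells (EVL-like, set apart by keratin genes) made up 27 of 82 cells on plate 5, 45 of 87 on plate 6, 10 of 86 on plate 7 and 17 of 92 on plate 8. Their part in the plate values was not tested.

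In level the ligands spanned a wider range. WNT11 stood at 2.93, 3.14 and 3.10 UMIs per 10000 in batches 1, 2 and 3, a mean of 3.05 ± 0.109 (SD, n = 3). WNT8A stood at 0.343, 0.433 and 0.512 UMIs per 10000 (0.430 ± 0.0845), and WNT8-2 at 0.344, 0.440 and 0.527 (0.437 ± 0.0914). WNT5B stood at 0.0469, 0.0515 and 0.101 UMIs per 10000 (0.0663 ± 0.0298). The spread between batches was narrow for WNT11 and separated the 3 levels, with WNT8A and WNT8-2 within each other's spread. The WNT11 level was 8.53, 7.24 and 6.04 times that of WNT8A in batches 1, 2 and 3. The highest count in a cell was 280 UMIs for WNT11, 80 for WNT8-2, 79 for WNT8A and 22 for WNT5B. Among the cells that held the gene, the median was 10.5 UMIs for WNT11, 5.0 for WNT8A, 4.0 for WNT8-2 and 2.0 for WNT5B. The 1 in 10 kept cells of a batch with the most WNT8A held 64.4% to 94.1% of its UMIs, and those with the most WNT11 held 49.9% to 65.5% of WNT11's.

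No other Wnt ligand reached these levels. Of 25 other Wnt symbols looked for, 11 were rows of the table, and each was detected in 1.2% of cells or fewer. WNT7AA had the highest share, in 12 cells, followed by WNT4B and WNT11R in 9 cells each and WNT1 in 8. None of the 11 met the filter for testing, detection in at least 5% of the compared cells.

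WNT8A and WNT8-2 cannot be taken as separate measurements. Their UMI counts had a Pearson correlation of 0.970 over the 1000 cells, and WNT8A held 49.6% of the UMIs of the pair. A UMI of either gene was found in 27.1% of the cells. Of these, 220 cells held both, and the 51 cells with only 1 of the genes had at most 3 UMIs of it, 43 of them exactly 1. Not 1 of the 120 cells with at least 10 UMIs of the pair lacked either gene. Their counts within a cell differed by less than independent draws would (chi-square of 0.693 per degree of freedom against a fixed split, and 0.571, 0.710 and 0.788 in batches 1, 2 and 3). The same measure was 6.14 for WNT8A against WNT11 and 7.65 for TA against MIXL1, a homeobox gene of the mesendoderm. RefSeq GRCz12tu gives wnt8a and wnt8-2 the same start and end. How reads of this locus were assigned to the rows is not given in the sources used here, so values of the pair are given side by side and not counted as 2 lines of evidence, and the sum of the rows may count molecules more than once.

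**Figure D1:**
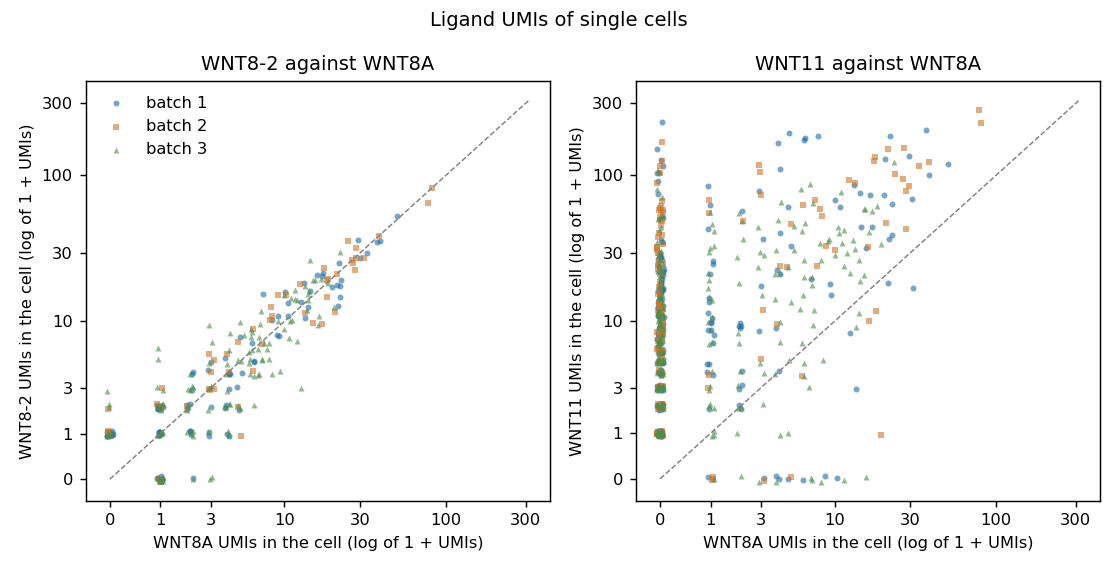
UMIs per cell of WNT8-2 (left) and WNT11 (right) against WNT8A, on log axes of 1 + UMIs, with a point per cell that held either gene of the panel, coloured by batch and shifted slightly so that equal counts can be seen. The dashed line marks equal counts: WNT8-2 lies along it, while WNT11 lies above it in 87.4% of the cells that held WNT8A and WNT11.

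Whether the ligands are marginal was asked with TA, which marks the margin in the early gastrula. The 453 cells with at least 3 TA UMIs (TA-positive: 33.8%, 24.1% and 42.2% of them in batches 1, 2 and 3) were compared with the 449 cells with none (TA-zero: 35.4%, 36.97% and 27.6%), and the 98 cells with 1 or 2 entered neither class. The summed UMIs of each class in each batch entered edgeR's quasi-likelihood test, with batch as a block, over 8266 genes. All 4 ligands were higher in TA-positive cells, where 1.26% of all genes tested were called higher and 0.254% lower, at an adjusted p under 0.05. The median log2 difference over all genes was -0.0036.

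WNT8A stood at 0.617, 1.07 and 0.818 UMIs per 10000 in TA-positive cells of batches 1, 2 and 3, against 0.119, 0.0274 and 0.0731 in TA-zero cells. The TA-positive value was the higher in each batch and the groups did not overlap. The log2 difference was 3.56 (SE 0.38, edgeR adjusted p = 1.96e-05). WNT8-2, read from the same locus, stood at 0.617, 1.09 and 0.859 against 0.118, 0.0285 and 0.0585 UMIs per 10000, a log2 difference of 3.68 (SE 0.38, edgeR adjusted p = 1.35e-05).

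WNT11 stood at 5.40, 7.55 and 4.79 UMIs per 10000 in TA-positive cells, against 0.692, 0.327 and 0.444 in TA-zero cells. The lowest TA-positive batch lay above the highest TA-zero batch, and the log2 difference was 3.60 (SE 0.20, 95% interval 3.19 to 4.02, edgeR adjusted p = 2.2e-08). WNT11 was detected in 84.3%, 82.6% and 84.8% of TA-positive cells and in 45.3%, 22.9% and 29.03% of TA-zero cells.

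WNT5B stood at 0.0815, 0.118 and 0.151 UMIs per 10000 in TA-positive cells, where batches 1 and 2 had 77 and 69 UMIs. In TA-zero cells it stood at 0.0156 and 0.0244 in batches 1 and 3, from 14 and 10 UMIs, and had no UMI in those of batch 2. By the limit of 3 counts, a count of 0 allows a UMI in up to 1.81% of those cells. The Wilson 95% interval reaches 2.26%, and neither sets a limit on the cells that express the gene. The groups did not overlap, but the counts were few, and the log2 difference was 3.39 (SE 0.71, 95% interval 1.89 to 4.89, edgeR adjusted p = 0.016). This call was lost with DESeq2 (adjusted p = 0.36), without batch 1 (adjusted p = 0.22), in cells with at least 3000 detected genes (adjusted p = 0.24) and without the batch block (adjusted p = 0.19), with log2 differences of 3.85, 4.10, 2.90 and 3.22. Over all alternatives its adjusted p ran from 1.99e-06 to 0.36, while WNT8A, WNT8-2 and WNT11 stayed called under every alternative run.

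**Figure D2:**
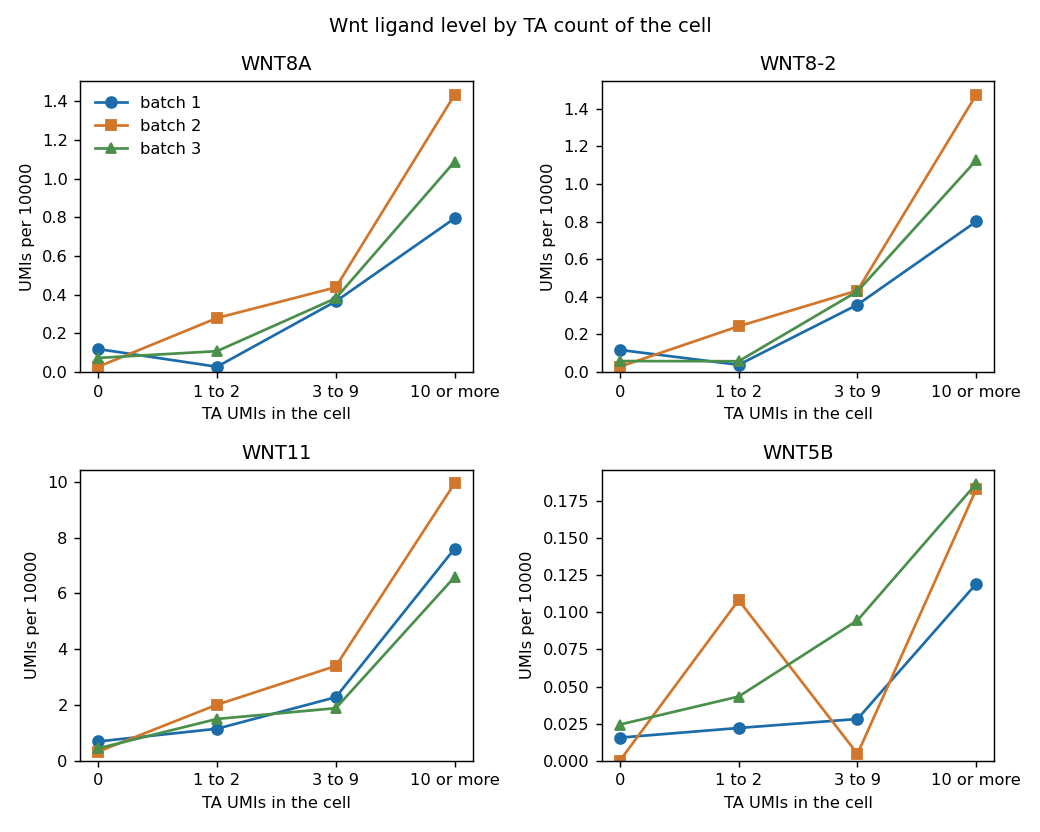
Level of each ligand in UMIs per 10000 (vertical axes, from 0) by the number of TA UMIs in the cell (horizontal axes), with a line per batch. The level at 10 or more TA UMIs is the highest in each batch for all 4 ligands, and WNT5B in batch 2 rests on 1 UMI in the class of 3 to 9.

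Within the range of TA the levels were graded. WNT11 averaged 0.488 ± 0.186 UMIs per 10000 in cells with no TA UMI, 1.55 ± 0.433 with 1 to 2, 2.52 ± 0.785 with 3 to 9 and 8.05 ± 1.72 with 10 or more (SD, n = 3 batches), and rose at each step in each batch. WNT8A averaged 0.0732 ± 0.0459, 0.138 ± 0.129, 0.395 ± 0.0380 and 1.11 ± 0.320 UMIs per 10000 over the same classes, with its 2 lower classes within each other's spread. WNT5B averaged 0.0133 ± 0.0123, 0.0578 ± 0.0449, 0.0425 ± 0.0467 and 0.163 ± 0.0379, so that its middle classes could not be told apart. Cells with 10 or more TA UMIs were also deeper. Their median totals were 62634, 56092 and 41668 UMIs, against 57022, 55074 and 31977 with none. Levels are per 10000 UMIs, and those by number of TA UMIs were not computed on thinned counts. With cells thinned to 20000 UMIs, the log2 differences between TA-positive and TA-zero cells were 3.81 for WNT8A, 3.76 for WNT8-2, 3.81 for WNT11 and 4.15 for WNT5B. That fit drew its classes again from the thinned TA counts. Its TA-zero class was larger than without thinning although shallower cells were left out, so the same cells were not compared. The part of depth in the rise with TA was not tested.

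TA-positive cells held 83.9%, 91.9% and 93.4% of WNT8A UMIs in batches 1, 2 and 3, and 86.003%, 89.7% and 90.5% of WNT11 UMIs. They held 81.1%, 85.2% and 87.97% of WNT5B UMIs. The same cells held 46.7%, 37.2% and 58.5% of all UMIs.

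The ligands were not confined to cells with TA. Among TA-zero cells in which MIXL1 was detected, WNT11 was found in 34 of 52 cells of batch 1 (65.4%, 51.8 to 76.8), 10 of 25 of batch 2 (23.4% to 59.3%) and 15 of 28 of batch 3 (53.6%, 35.8 to 70.5). Among cells with neither TA nor MIXL1, WNT11 was found in 35.5% (27.1 to 44.9), 19.9% (14.1 to 27.2) and 21.9% (14.8 to 31.1) of cells, and WNT8A in 8.41%, 2.13% and 7.29%. The EVL-like cells among them held WNT11 in 8 of 13, 4 of 15 and 4 of 23 cells. The median totals of the cells with neither marker were 56567, 54040 and 30965 UMIs. Whether WNT11 UMIs in these cells come from the cell itself or from RNA in the dissociation medium was not tested.

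TA-positive and TA-zero cells differed in more than TA. The animal ectoderm markers (7 genes, SOX3 and SOX19A among them) summed to 13.5 to 20.5 UMIs per 10000 over the TA-positive batches, against 27.01 to 29.7 in TA-zero cells, with no member at 0. The 10 EVL markers summed to 10.2 to 13.9 against 8.53 to 10.6. The yolk syncytial layer markers (6 genes) summed to 0.580 to 1.37 against 0.329 to 1.04, with MXTX1 at 0 in TA-zero cells of batch 3. EVL-like cells made up 33.3%, 20.2% and 23.6% of TA-positive and 23.3%, 12.7% and 20.97% of TA-zero cells. Without EVL-like cells the log2 differences were 3.71 for WNT8A, 3.90 for WNT8-2, 3.76 for WNT11 and 3.46 for WNT5B.

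The genes most like each ligand over the 1000 cells were ranked by the mean over batches of the within-batch Pearson correlation of log2(1 + UMIs per 10000), after regression on total UMIs, among 8300 genes. These correlations are across cells that share a library and are given as descriptions. For WNT8A the nearest gene was WNT8-2 (mean r 0.96), followed by MIXL1 (0.56), OSR1, a zinc finger gene of early mesendoderm (0.56), WNT11 (0.55), MESPAB, a bHLH factor of the presomitic mesoderm (0.51), and TA (0.47). For WNT11 the nearest was TA (0.67), followed by MIXL1 (0.66), the homeobox gene SEBOX (0.58), OSR1 (0.57), WNT8-2 (0.56) and WNT8A (0.55). For WNT5B, with few UMIs, the nearest was WNT11 (0.30), followed by ALDH1A2, the enzyme of retinoic acid synthesis (0.30), WNT8-2 (0.28), a row with a provisional name (0.27), the posterior homeobox gene CDX4 (0.27) and MIXL1 (0.27).

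Other parts of the Wnt pathway were read from lists by role. Among secretion genes WLS, the carrier that takes Wnt proteins to the cell surface, was higher in TA-positive cells, at 2.89, 2.71 and 2.68 against 2.30, 2.10 and 1.92 UMIs per 10000 (log2 difference 0.37, SE 0.08, edgeR adjusted p = 0.034). The other tested secretion gene, PORCNL, had a log2 difference of -0.58 (SE 0.57) and was not called. No receptor was called by edgeR or DESeq2 among 12 tested, with 2 at an unadjusted p under 0.05 and a median log2 difference of 0.01. Of all 8266 genes tested, 667 had an unadjusted p under 0.05. The 2 receptors at an unadjusted p under 0.05 went in opposite directions. FZD7B had a log2 difference of -0.30 (SE 0.09, 95% interval -0.50 to -0.10, edgeR adjusted p = 0.22). FZD10 had a log2 difference of 1.36 (SE 0.40, 95% interval 0.52 to 2.21, edgeR adjusted p = 0.16). The co-receptor PTK7A had a log2 difference of -0.15 (SE 0.14). The median log2 difference of 18 transduction genes was -0.06, and none was lower. Called higher were 3 of the 18, against 1.26% of all genes tested. These were LEF1, a nuclear partner of beta-catenin (1.43, SE 0.24), TCF3B (0.60, SE 0.10), a row the table keeps apart from TCF7L1A and TCF7L1B and which may hold a gene outside the Wnt pathway, and CTNNB2, a beta-catenin (0.36, SE 0.07). CTNNB1, the other beta-catenin gene, had a log2 difference of -0.02 (SE 0.07).

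Of 16 genes listed as beta-catenin targets, 10 were higher in TA-positive cells and none lower, with a median log2 difference of 1.27. Over all genes tested, 1.26% were called higher. LEF1, counted above with the transduction genes, is among the 10. The 6 not called include VOX (0.20, SE 0.055). The largest differences were those of the homeobox gene GBX1 (3.59, SE 0.61), of MSGN1 (3.14, SE 0.45) and TBX6 (2.08, SE 0.26), factors of the presomitic mesoderm, and of CDX4 (2.51, SE 0.26). AXIN2, a feedback inhibitor of the canonical branch, stood at 0.652, 0.604 and 0.893 in TA-positive cells, against 0.217, 0.268 and 0.251 UMIs per 10000 in TA-zero cells (log2 difference 1.50, SE 0.20, edgeR adjusted p = 0.00016). The zinc finger gene SP5A had a log2 difference of 1.46 (SE 0.29). Most of these genes are also markers of marginal mesoderm. Of 5 antagonists, 2 were higher and none lower by edgeR: DKK1B, which blocks the Lrp co-receptors (2.15, SE 0.20), and NOTUM1A, which removes the lipid from Wnt proteins (1.84, SE 0.27). SFRP1A, a secreted Frizzled-related protein, had a log2 difference of -0.45 (SE 0.12) and was not called by edgeR (adjusted p = 0.079), while DESeq2 called it lower (adjusted p = 0.048). Of 16 planar cell polarity genes, PRICKLE1B was the 1 called, at 0.766, 1.02 and 0.718 against 0.224, 0.279 and 0.207 UMIs per 10000 (log2 difference 1.79, SE 0.18, edgeR adjusted p = 8.19e-06). The list's median log2 difference was 0.02, and VANGL2, a core component of that pathway, had -0.40 (SE 0.20).

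Canonical and non-canonical ligands were then counted in the same cells. Of the 453 TA-positive cells, 43.7% held a UMI of a WNT8 row together with WNT11 or WNT5B, 40.6% held a non-canonical ligand only, 12 cells held WNT8A or WNT8-2 only and 59 held none. By batch the share with both kinds was 38.6% (31.2 to 46.5), 35.8% (27.4 to 45.1) and 52.4% (45.3 to 59.3) of TA-positive cells of batches 1, 2 and 3, against 11.3% (7.28 to 17.2), 1.81% (0.616 to 5.18) and 6.45% (3.31 to 12.2) of TA-zero cells. Cells with WNT8 alone were 2.61%, 2.75% and 2.62% of TA-positive cells, so that WNT8 was seldom found in them without a non-canonical ligand. The reverse was common, as 45.8%, 47.7% and 32.5% of TA-positive cells held a non-canonical ligand alone. With cells thinned to 20000 UMIs the share with both kinds was 37.5%, and to 10000 UMIs it was 32.01%. Among TA-zero cells, 6, 2 and 5 held WNT8 alone in batches 1, 2 and 3, against 18, 3 and 8 with both kinds.

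**Figure D3:**
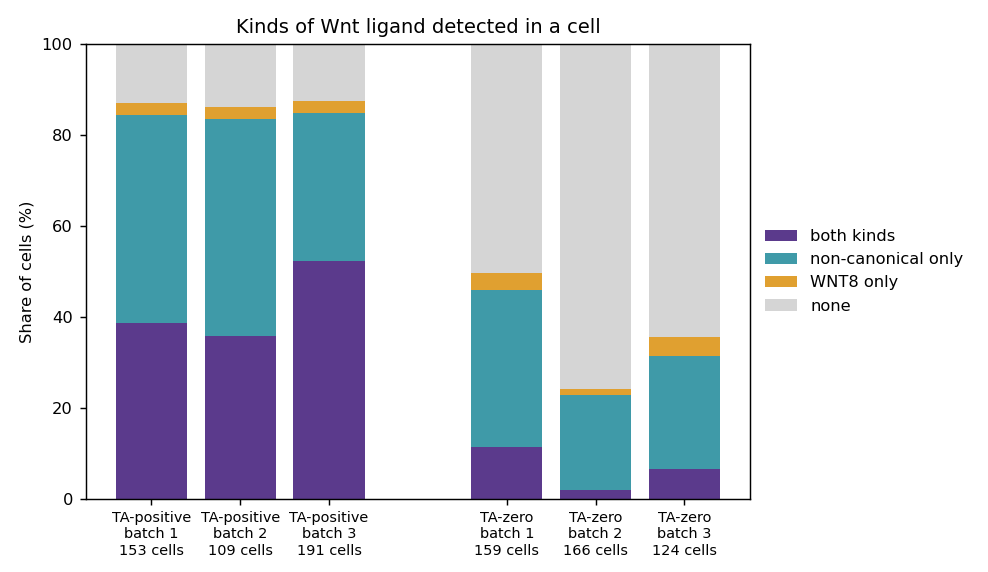
Share of cells (vertical axis, percent) that held both kinds of ligand, WNT11 or WNT5B only, WNT8A or WNT8-2 only, or none of the 4, in TA-positive cells (left) and TA-zero cells (right) of each batch. Both kinds together make up 35.8% to 52.4% of TA-positive cells and 1.81% to 11.3% of TA-zero cells.

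Of the 210 TA-positive cells with a WNT8 UMI, 94.3% also held WNT11 or WNT5B. Of the TA-positive cells without one, 75.7% held a non-canonical ligand. By batch these were 93.7% against 77.8%, 92.9% against 77.6% and 95.2% against 72.1%. The odds ratio was 4.21, 3.75 and 7.74 in batches 1, 2 and 3 and, with cells thinned to 20000 UMIs, 4.93, 6.53 and 6.47. These are descriptions over cells, which are not replicates.

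Where both were present WNT11 was usually the more abundant. WNT8A and WNT11 were found together in 22.2% of kept cells. Of these, 87.4% (82.4 to 91.1) had more WNT11, 10 cells had equal counts and 18 had more WNT8A. The median of these cells was 25 WNT11 UMIs and 5.0 WNT8A UMIs. WNT5B seldom stood alone. Of its 81 cells, 75 also held WNT11, 54 held a WNT8 row and 6 held neither. In TA-positive cells WNT5B was found in 51 of the 210 cells with a WNT8 UMI (24.3%) and in 13 of those without (5.35%), and in 16.5% of the cells with WNT11 and 1 of the 72 without.

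The levels of the canonical ligands were tested between the 84.3% of TA-positive cells that held WNT11 or WNT5B (non-canonical-positive: 33.8%, 23.8% and 42.4% of them in batches 1, 2 and 3) and the 71 that held neither (non-canonical-zero: 24, 18 and 29 cells). Both WNT8 rows were higher in non-canonical-positive cells, where 0.626% of the 8460 genes tested were called higher and 0.201% lower. WNT8A stood at 0.705, 1.29 and 0.908 UMIs per 10000 in non-canonical-positive cells of batches 1, 2 and 3, against 0.131, 0.0391 and 0.330 in non-canonical-zero cells. The lowest value of the positive class was above the highest of the zero class, which rested on 19, 4 and 40 UMIs. For WNT8A the log2 difference was 2.61 (SE 0.47, 95% interval 1.65 to 3.56, edgeR adjusted p = 0.0015). WNT8-2 stood at 0.710, 1.32 and 0.964 against 0.104, 0.0391 and 0.297 UMIs per 10000 (log2 difference 2.84, SE 0.46, edgeR adjusted p = 0.00046).

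TA differed between these classes as well, at 2.91, 5.09 and 4.39 UMIs per 10000 in non-canonical-positive cells against 1.74, 2.32 and 1.78 in non-canonical-zero cells (log2 difference 1.01, SE 0.15). The 8 marginal mesendoderm markers summed to 11.7 to 19.02 against 4.04 to 6.35 UMIs per 10000, and the 7 animal ectoderm markers to 11.6 to 18.99 against 22.6 to 28.8. The 4 endoderm markers summed to 1.34 to 2.82 against 0.291 to 0.677, and the 6 dorsal markers to 2.35 to 3.69 against 1.02 to 1.65. The sums of the 6 ventral markers overlapped, at 49.1 to 59.4 against 35.6 to 59.8. These sums are not independent, as GATA5 (log2 difference 2.55, SE 0.30) is in both the mesendoderm and the endoderm list. TA is itself in the mesendoderm list. In non-canonical-zero cells SOX17, FRZB and DHARMA were at 0 in every batch, and DHARMA was also at 0 in non-canonical-positive cells of batch 3. EVL-like cells made up 35.7%, 23.1% and 22.8% of non-canonical-positive and 20.8%, 5.56% and 27.6% of non-canonical-zero cells, and without them the log2 difference was 3.57 for WNT8A and 3.50 for WNT8-2. The part of these markers in the result was not tested. Among cells with at least 10 TA UMIs, 91.7% were non-canonical-positive and 22 cells were non-canonical-zero, and the log2 difference was 2.28 for WNT8A (edgeR adjusted p = 0.093) and 2.53 for WNT8-2 (adjusted p = 0.035). Without batch 2 it was 1.87 for WNT8A (adjusted p = 0.082) and 2.15 for WNT8-2 (adjusted p = 0.039). Neither row was called without the batch block (edgeR adjusted p = 0.15 for WNT8A and 0.10 for WNT8-2) or in cells with at least 3000 detected genes (0.15 and 0.070). Median totals were 59879, 55805 and 39762 UMIs in non-canonical-positive and 63954, 61408 and 41556 in non-canonical-zero cells, and median numbers of detected genes were 3858, 3569 and 3341.5 against 3543.5, 3459 and 3311.

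Over all genes tested, 0.626% were called higher and 0.201% lower in non-canonical-positive cells. Among the pathway lists, 3 of 15 beta-catenin targets were higher and none lower. These were MSGN1 (log2 difference 3.72, SE 0.70), TBX6 (2.59, SE 0.49) and TBX16, a T-box factor of the mesoderm (0.86, SE 0.15). Of the 15 targets, 11 had an unadjusted p under 0.05, as did 568 of all 8460 genes tested. AXIN2 (1.04, SE 0.35), LEF1 (1.42, SE 0.42) and SP5A (1.16, SE 0.47) were not called (edgeR adjusted p = 0.37, 0.19 and 0.63). Neither were VED (0.25, SE 0.08) and VOX (0.04, SE 0.09). The list's median log2 difference was 0.98, against 0.06 over all genes. Of 5 antagonists, 2 were higher and none lower by edgeR, with 4 at an unadjusted p under 0.05. DKK1B stood at 1.11, 2.20 and 1.96 UMIs per 10000 against 0.194, 0.0978 and 0.355 (log2 difference 2.97, SE 0.33, edgeR adjusted p = 1.88e-06). FRZB, a secreted Frizzled-related protein of the organizer, stood at 0.0988, 0.118 and 0.241 UMIs per 10000 in non-canonical-positive cells and had no UMI in the 71 non-canonical-zero cells (edgeR adjusted p = 0.022). By the limit of 3 counts a UMI in up to 4.23% of those cells is allowed. SFRP1A had a log2 difference of -0.76 (SE 0.20), not called by edgeR (adjusted p = 0.078) and called lower by DESeq2 (adjusted p = 0.045). Of 16 planar cell polarity genes PRICKLE1B was the 1 called (1.97, SE 0.38, edgeR adjusted p = 0.0040). No gene was called by edgeR or DESeq2 among 12 receptors, 19 transduction genes and 2 secretion genes, with 0, 3 and 0 of them at an unadjusted p under 0.05.

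The dorsoventral axis was read within TA-positive cells from CHD (chordin), the BMP antagonist of the dorsal organizer, and SZL (sizzled), a ventral gene induced by BMP. Those with CHD and no SZL UMI (CHD-positive: 52, 31 and 51 cells of batches 1, 2 and 3) were compared with the 56 cells with SZL and no CHD UMI (SZL-positive: 23, 6 and 27 cells). No ligand was called higher or lower by edgeR or DESeq2 and none had an unadjusted p under 0.05, where 0.118% of 8510 genes were called higher and 0.0823% lower in CHD-positive cells. The median log2 difference over all genes was 0.13. Among the genes that passed, the ventral homeobox repressors VED (-1.40, SE 0.10) and VOX (-0.96, SE 0.12) were lower and DKK1B was higher (2.75, SE 0.47) in CHD-positive cells, so that the classes differed in other dorsoventral genes.

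WNT8A stood at 0.572, 0.692 and 0.797 UMIs per 10000 in CHD-positive cells of batches 1, 2 and 3. The batch 2 level rests largely on 1 cell, which held 79 WNT8A UMIs, most of those of the class in that batch. In SZL-positive cells WNT8A stood at 0.411 and 0.926 in batches 1 and 3 and had no UMI in the 6 cells of batch 2. A count of 0 allows a UMI in up to 39.03% of those cells by the Wilson 95% interval. The limit of 3 counts gives 50%, and is rough for 6 cells. Cells of batch 2 that held WNT8A had a median of 8.0 UMIs of it, so this count sets no close limit on the level. The groups overlapped, as batch 3 had the order of batch 1 turned round. The log2 difference was 1.00 (SE 0.66, 95% interval -0.32 to 2.32, edgeR adjusted p = 1.0). It was 1.59 without batch 1, 0.10 without batch 2 and 2.21 without batch 3, called in none of them. WNT8-2 stood at 0.572, 0.733 and 0.865 against 0.366, 0 and 0.863 UMIs per 10000, a log2 difference of 1.17 (SE 0.66, 95% interval -0.14 to 2.49). Its CHD-positive level in batch 2 also rests largely on 1 cell, which held 80 WNT8-2 UMIs.

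WNT11 stood at 5.76, 5.94 and 5.42 UMIs per 10000 in CHD-positive cells, against 3.35, 9.89 and 3.72 in SZL-positive cells. It was higher in CHD-positive cells of batches 1 and 3 and lower in those of batch 2, where the SZL-positive class has 6 cells and 49.4% of its WNT11 UMIs lie in 1 of them. The log2 difference was 0.18 (SE 0.18, 95% interval -0.18 to 0.54). Without batch 2 it was 0.64 (edgeR adjusted p = 0.022, where 0.234% of the genes tested were called higher), and it was -0.12 without batch 1 and 0.01 without batch 3. WNT11 was detected in 84.6%, 83.9% and 88.2% of CHD-positive and 73.9%, 66.7% and 74.1% of SZL-positive cells.

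WNT5B stood at 0.0611, 0.0233 and 0.225 UMIs per 10000 in CHD-positive cells, from 19, 4 and 50 UMIs, against 0.148, 0 and 0.0449 in SZL-positive cells, from 23, 0 and 5 UMIs. The order differed between batches. The log2 difference was 0.82 (SE 1.58, 95% interval -2.33 to 3.96), an interval that spans a wide range in either direction, and it was 2.51 without batch 1, 0.40 without batch 2 and -0.23 without batch 3.

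**Figure D4:**
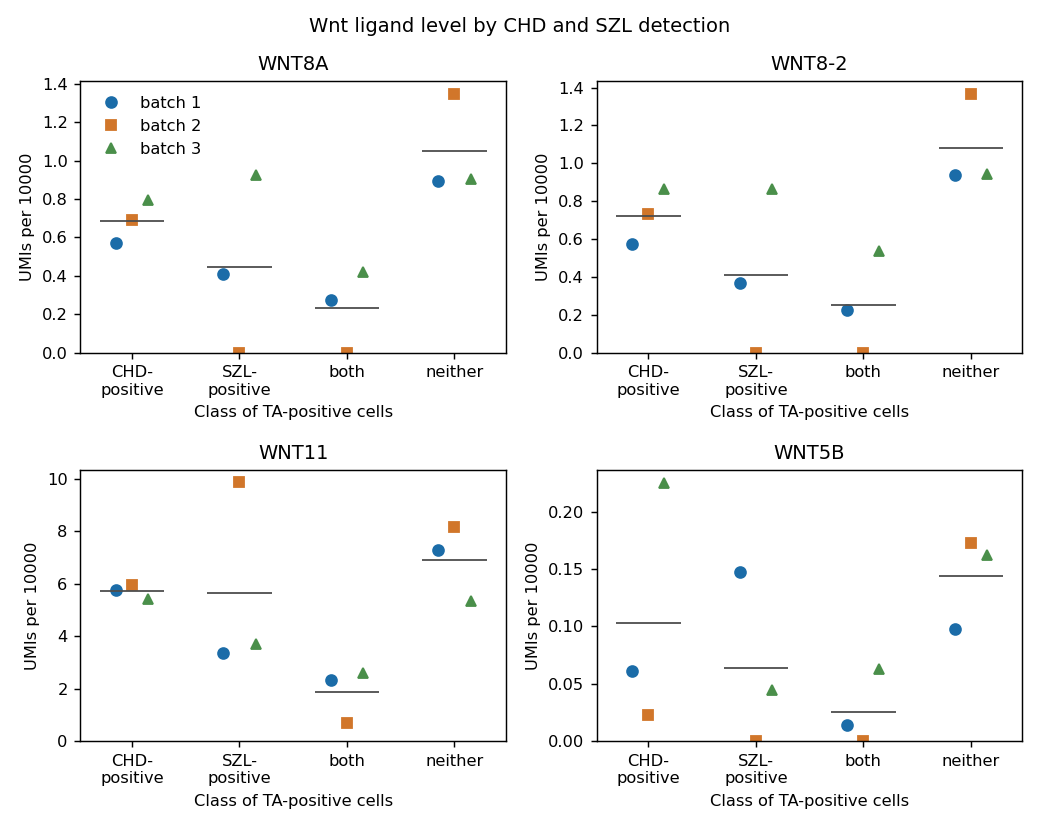
Level of each ligand in UMIs per 10000 (vertical axes, from 0) in TA-positive cells by detection of CHD and SZL, with a point per batch and a bar at the mean of the 3 batches. CHD-positive and SZL-positive cells overlap for all 4 ligands, and the SZL-positive class of batch 2 holds 6 cells.

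The classes differed in cell type markers. EVL-like cells made up 42.3%, 35.5% and 15.7% of CHD-positive and 4.35%, 0% and 18.5% of SZL-positive cells, and the 10 EVL markers summed to 7.77 to 17.7 against 2.41 to 7.71 UMIs per 10000, with CLDNB, PKP3A and CKI at 0 in SZL-positive cells of batch 2 and PKP3A in those of batch 1. Without EVL-like cells the log2 differences were 1.28 for WNT8A, 1.38 for WNT8-2, 0.21 for WNT11 and 0.48 for WNT5B, and none was called. TA stood at 2.96, 4.30 and 4.19 against 2.51, 3.01 and 4.10 UMIs per 10000 (log2 difference 0.23, SE 0.20).

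The TA-positive cells outside these classes are described with no test. In the 49.01% of TA-positive cells with neither CHD nor SZL, WNT8A averaged 1.05 ± 0.259, WNT11 6.92 ± 1.44 and WNT5B 0.144 ± 0.0408 UMIs per 10000 (SD, n = 3), and WNT8A was above its CHD-positive level in each batch. In the 41 cells with both, 20, 1 and 20 in batches 1, 2 and 3, WNT8A stood at 0.274 and 0.421 in batches 1 and 3 and WNT11 at 2.32 and 2.59. These levels lay below those of CHD-positive cells in both batches. The share of cells with WNT8A did not, at 40% and 60% against 32.7% and 45.1% of CHD-positive cells. For WNT11 the shares were 90% and 80% against 84.6% and 88.2%. The median totals of cells with both were 66593 and 45716 UMIs in batches 1 and 3, against 58616 and 41668 in CHD-positive cells, so that they were also the deeper cells.

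**Figure D5:**
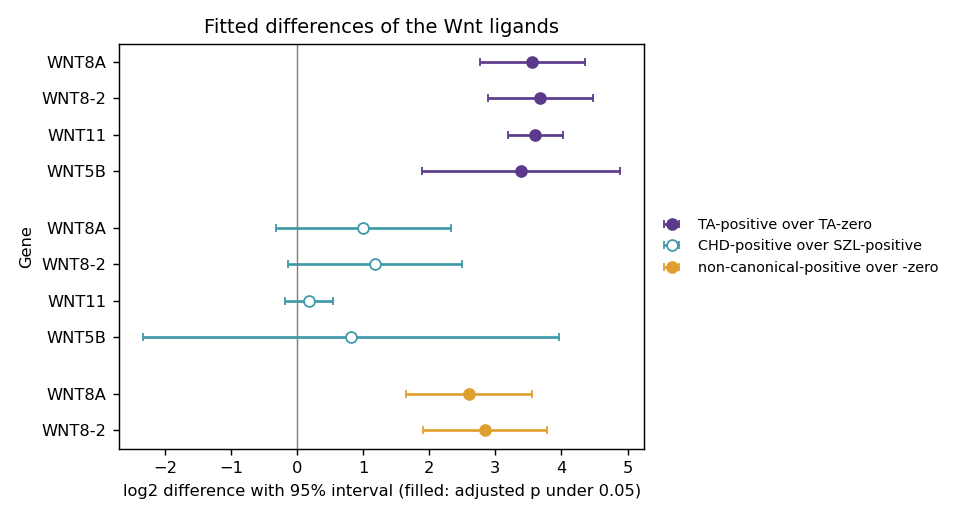
Fitted log2 differences of the ligands (points) with 95% intervals (bars) in TA-positive over TA-zero cells, CHD-positive over SZL-positive cells and non-canonical-positive over non-canonical-zero cells, filled where the edgeR adjusted p was under 0.05. All 4 ligands lie above 3 in the first comparison, from 3.39 to 3.68, and every interval of the CHD and SZL comparison includes 0.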

How the data were processed

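The authors deposited raw UMI counts per gene and well. Per the submitters' processing notes Bowtie and the genome build Zv9 were used; versions are not given in the sources used here. The UMI is 5 random bases long per the labels' protocols, which gives 1024 possible tags. The highest count of a ligand was 280, and that of any gene was 975, close to the number of tags. Loss of counts to shared tags, in the ligands or in the totals, was not tested. A well was kept if 2000 or more genes had a UMI in it. Cells were picked by hand and no doublet caller was run; wells with over 5000 detected genes were left out as an alternative.

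UMIs were summed per class and batch, which gives 6 sums per comparison, and tested with edgeR 4.0.16 (quasi-likelihood, TMM, batch as a block) in R 4.3.3, for genes with a UMI in 5% or more of the cells compared, with Benjamini-Hochberg adjustment over all genes tested and a call at 0.05. The class genes were left out of the tests. The classes of a batch are different wells processed together, which is why batch is a block. The batch is the replicate (n = 3), cells are not, and since nothing says that batches were separate clutches, p-values measure a spread that may be technical. The SE is the log2 difference divided by the square root of F. DESeq2 1.42.0 was an alternative. EVL-like cells were those with a posterior over 0.5 in a Gaussian mixture on KRT4, KRT5, KRT8, KRT18 and CYT1. The fit was run on simulated counts with a single dispersion, in which only genes with many summed UMIs were changed. That run checks the code and does not bear on sparse genes or classes of few cells.

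The ligands, lists, classes and alternatives were chosen with earlier results of these data known. Named genes are the ligands, the class genes, up to 6 called and 2 uncalled members per pathway list, and the 6 genes most like each ligand. FZD10 is named besides these, for its unadjusted p under 0.05. More than 2 uncalled beta-catenin targets are named for the non-canonical classes.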

Additional observations from a re-analysis of the deposited data

Results flagged for a closer look

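The ligands also had UMIs in the 13.2% of wells left out for fewer than 2000 detected genes, which enter no comparison and have a median total of 4229.5 UMIs. WNT11 was found in 37 of these wells (24.3%, Wilson 95% interval 18.2 to 31.7). WNT8-2 had 60 UMIs, in 10 wells, and WNT8A had 48, in 9 wells. WNT5B had 7 UMIs, in 3 wells. Per 10000 UMIs these are 1.97 for WNT11, 0.562 for WNT8-2, 0.449 for WNT8A and 0.0655 for WNT5B, against 3.05 ± 0.109, 0.437 ± 0.0914, 0.430 ± 0.0845 and 0.0663 ± 0.0298 in kept cells (SD, n = 3 batches). The left-out wells are pooled, and the batches gave unequal shares of them. Of the wells of batches 1, 2 and 3, 90.4%, 77.1% and 92.97% were kept. WNT8A and WNT5B lay within the spread of the kept batches, and WNT11 lay below the lowest of them. WNT8-2 lay more than 1 SD above the mean of the kept batches. The highest well held 18 of its 60 UMIs, and 11 of 48 for WNT8A. The 2 rows are not separate measurements, so no difference between them is read from these wells.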

How the results depend on the processing

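WNT8A, WNT8-2 and WNT11 kept their call in TA-positive over TA-zero cells under 14 alternatives each. WNT5B was no longer called with DESeq2 (log2 difference 3.85), in cells with 3000 genes (2.90), without batch 1 and without the batch block (3.22). Without the block, which is the replicate block of this design, 61 genes were called higher and 3 lower in TA-positive cells, 2 and 2 in CHD-positive cells, and 5 and 0 in non-canonical-positive cells (edgeR; 150 genes were lower at an unadjusted p under 0.05), where WNT8A had 2.44 and WNT8-2 2.68 and neither was called. Genes lower in TA-positive cells numbered 32 with DESeq2, 46 with no gene filter and 13 in cells with 3000 genes. In CHD-positive cells 6 genes were higher without EVL-like cells, and 16 were higher and 11 lower over all kept cells. In non-canonical-positive cells 30 and 7 were called in cells with 3000 genes, where WNT8A had 2.52 and WNT8-2 2.80 and neither was called, 130 and 44 over all kept cells, and 22 and 4 at 10 TA UMIs, where WNT8A had 2.28. The causes were not tested, other than that fewer cells enter several of these fits.

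Leaving out each batch in turn gave 73 to 99 genes higher and 15 to 23 lower in TA-positive cells, with log2 differences of 2.84 to 4.36 for WNT8A, 2.99 to 4.57 for WNT8-2, 3.16 to 3.99 for WNT11 and 2.49 to 4.10 for WNT5B. In CHD-positive cells it gave 6 to 20 higher and 5 to 12 lower, with 0.10 to 2.21 for WNT8A, 0.29 to 2.35 for WNT8-2, -0.12 to 0.64 for WNT11 and -0.23 to 2.51 for WNT5B; the signs of WNT11 (without batch 1) and WNT5B (without batch 3) turned. In non-canonical-positive cells it gave 30 to 46 higher and 7 to 14 lower, with 1.87 to 3.42 for WNT8A and 2.15 to 3.66 for WNT8-2. Alternatives without the near-identical wells and with at least 10 TA UMIs in the co-expression classes were added after the data were seen. The SZL-positive class of batch 2 holds 6 cells.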
